A study of Homo sapiens with 12 samples.

Results

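The genes described here are 52 components and regulators of chromosomal DNA replication, from the proteins that license origins to the polymerases, the sliding clamp and the enzymes that supply deoxynucleotides. They come from a list of gene names whose rule uses no measured value, though the list was drawn up with earlier results of these data known, and all 52 were found among the 12756 genes of each of the 3 tables of fold changes. The tables come from polyA RNA-seq of HCT116, an established human colorectal carcinoma cell line, harvested 48 h after seeding. The 12 libraries form 4 groups of 3, namely parental cells and HCT116 cells deficient in AGO2, in ANKRD52, or in both ANKRD52 and CSNK1A1 (here the double knockout). AGO2 is an Argonaute protein, the effector of microRNA silencing, ANKRD52 is a regulatory subunit of protein phosphatase 6, and CSNK1A1 is the protein kinase casein kinase 1 alpha. The labels give no drug treatment, do not say how the knockouts were made, and do not say whether a group is 1 clone or its replicates separate cultures. The p-values therefore measure the spread among these libraries, and that spread may be technical.

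A chromosome is licensed for replication in G1, when the origin recognition complex, CDC6 and CDT1 load the MCM2 to MCM7 helicase onto DNA in an inactive form. In S phase the kinase CDC7 with its activator DBF4 lets CDC45 and the GINS complex join the helicase, which then unwinds DNA ahead of the polymerases. Many of these genes are transcribed in late G1 under E2F transcription factors, and proliferating carcinoma cells such as HCT116 express them strongly.

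Because E2F binding is a known shared feature of these promoters, sequence was examined in the 46 of 52 genes that had an entry in the RefSeq promoter table (GRCh38.p14, 250 bases before to 50 bases after a start site). MCM4, MCM5, GINS4, POLD3, RPA2 and RPA3 had none. The search covered 4 spellings of an E2F-type motif (TTTCCCGC, TTTGGCGC, TTTCGCGC and TTTGCCGC), which share bases with each other where they overlap, and both strands. Shares were counted by gene, with a match at any of its start sites. At least 1 spelling stood in 24 of the 46 genes (52.2%), against 3.99% of the 27305 genes of the promoter table. Of the 9319 genes of the fold change tables that had a promoter entry, 6.64% held at least 1 spelling. Of the members that fell in the double knockout and had an entry, 10 of 16 held a spelling (62.5%), as did 12 of the 28 that were not called (42.9%) and both that rose. The CCAAT box (CCAAT) stood in 28 of 46 (60.9%), against 39.7% of the genes of the promoter table and 43.3% of the genes of the fold change tables. The cell cycle homology region letters TTTGAA stood in 2 of 46 (4.35%), against 18.2% and 13.3%. A match to these letters is a description of the window and not a site shown to be bound.

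The windows below run from 100 bases before to 20 bases after the start site, 5′ to 3′ on the gene's strand, and capitals mark the E2F-type letters. The 6 genes were picked by name and not by a rule. E2F-type letters stand near the start of genes that were lower (MCM6, CDT1, POLE2 and E2F2) and genes that were higher (PCNA and CLSPN) in the double knockout. The spelling differed, with TTTCCCGC in CDT1, PCNA and CLSPN, TTTGGCGC in MCM6, POLE2 and E2F2, and also TTTCGCGC in MCM6. In POLE2 and CLSPN the letters begin 5 bases before the start and run across it. The MCM6 window lies at chr2:135876424-135876543 on the minus strand, and its capitals hold 2 overlapping matches that begin 90 bases before the start. CDT1 lies at chr16:88803689-88803808 on the plus strand, POLE2 at chr14:49688195-49688314, E2F2 at chr1:23531214-23531333, PCNA at chr20:5126603-5126722 and CLSPN at chr1:35769959-35770078, these last 4 on the minus strand.
MCM6: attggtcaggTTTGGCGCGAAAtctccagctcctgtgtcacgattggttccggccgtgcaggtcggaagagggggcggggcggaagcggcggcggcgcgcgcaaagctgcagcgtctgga
CDT1: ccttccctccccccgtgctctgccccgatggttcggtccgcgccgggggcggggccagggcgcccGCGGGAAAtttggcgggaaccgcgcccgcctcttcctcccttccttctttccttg
POLE2: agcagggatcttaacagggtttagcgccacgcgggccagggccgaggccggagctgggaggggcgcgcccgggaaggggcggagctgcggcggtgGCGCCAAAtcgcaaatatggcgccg
E2F2: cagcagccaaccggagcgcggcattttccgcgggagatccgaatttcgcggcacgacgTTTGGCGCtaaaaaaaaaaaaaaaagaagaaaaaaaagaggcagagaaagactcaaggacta
PCNA: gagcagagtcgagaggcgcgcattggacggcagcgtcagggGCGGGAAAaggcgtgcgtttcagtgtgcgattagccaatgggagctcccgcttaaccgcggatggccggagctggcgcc
CLSPN: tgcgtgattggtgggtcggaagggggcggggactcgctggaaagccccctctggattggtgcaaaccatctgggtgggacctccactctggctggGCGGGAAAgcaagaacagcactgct

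No count or level of a single library was used here, so each gene is given as its log2 fold change against parental with an approximate standard error, which is the size of that change divided by the root of the authors' likelihood ratio. Group levels in CPM (counts scaled to library size) follow from the mean CPM of all libraries together with the 3 fold changes if the 4 groups weigh equally. They are called implied levels and carry no error of their own. A gene is called at the authors' adjusted p under 0.05 over all 12756 genes. The members were well expressed, with a mean log2 CPM between 3.97 (RPA3) and 9.14 (RRM2) and a median of 6.50, against 5.08 for all genes. Their approximate standard errors had a median of 0.101, lower than the 0.135 of all genes in the AGO2 table. The smallest change of a member that passed was -0.23, for LIG1 in the double knockout (authors' deposited table).

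More replication genes fell than rose in each of the 3 knockouts, and all changes were small. In the authors' deposited table for the AGO2 knockout, 0 members rose and 8 fell, where 3.38% of all genes rose and 2.72% fell. For the ANKRD52 knockout the authors' deposited table called 1 member higher and 7 lower, where 7.62% of all genes rose and 6.04% fell. For the double knockout the authors' deposited table called 2 members higher and 19 lower, where 22.9% of all genes rose and 20.1% fell. The share of members that fell was thus 15.4%, 13.5% and 36.5%, and the share that rose was 0%, 1.92% and 3.85%. The median log2 fold change of the members was -0.08, -0.08 and -0.15 in that order, against 0.00, 0.00 and 0.01 over all genes, and 34, 37 and 40 of the 52 lay below 0. The 3 comparisons share the parental libraries, so their values are set side by side and are not independent of each other. In bulk RNA of this kind, fewer cells in S phase and less RNA per cell cannot be told apart.

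Replication genes were better measured than most genes, and the background was therefore also taken over the 6349 genes with a mean log2 CPM from 5 to 9, a range that holds 48 of the 52 members. Of these genes 2.49% fell in the AGO2 knockout, 6.39% in the ANKRD52 and 23.8% in the double knockout, while 4.44%, 8.90% and 22.1% rose. No member reached a log2 fold change of 1 in either direction in any table. Of the 52, 27 were called in none of the 3 tables, 17 in 1, 4 in 2 and 4 in all 3. Those called in all 3 were MCM2, CDT1, POLD1 and LIG1, each lower every time. In the plot of cumulative shares the members stand to the left of all genes through the middle of the distribution, and meet them again in the lower tail.

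**Figure D1:**
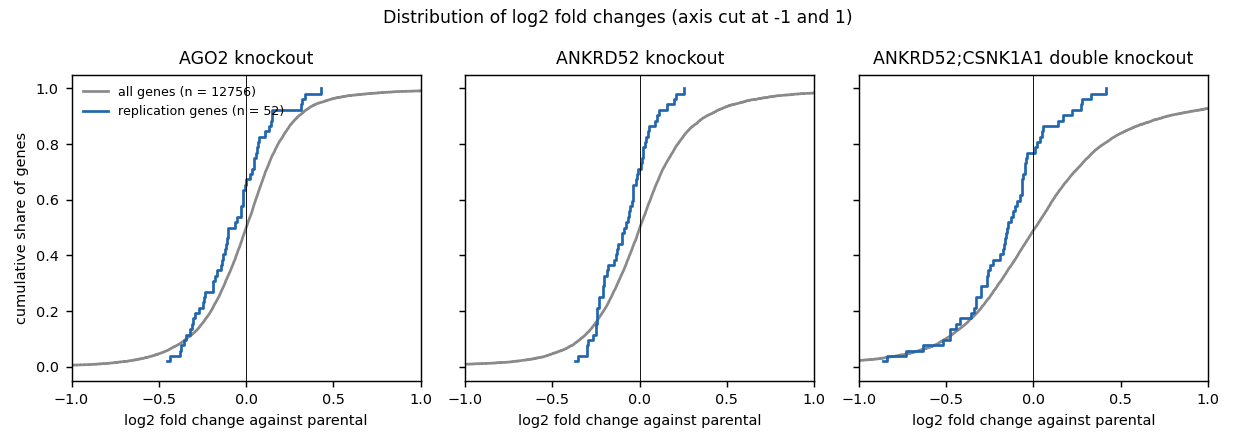
Cumulative share of genes (vertical axis) at or below a log2 fold change against parental (horizontal axis, cut at -1 and 1) for the 52 replication genes and all 12756 genes, 1 panel per knockout. The members' line lies left of that of all genes around the median in all 3 panels, and the members end at 0.43, 0.25 and 0.42.

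The strength of these calls depends on the reference distribution. The authors' likelihood ratios were also read against F(1, 8) in place of chi-square, which is stricter and allows for the 12 libraries. Under it 0 members kept a call in the AGO2 knockout and 0 in the ANKRD52 knockout, while 0% and 0.0235% of all genes were called there. An unadjusted p under 0.05 was reached by 14 of 52 members and 1834 of 12756 genes in the AGO2 knockout. In the ANKRD52 knockout it was reached by 10 of 52 members and 2473 of 12756 genes, so the members did not exceed the share of all genes. In the double knockout 13 of 52 members kept their calls, 2 higher and 11 lower, where 29.7% of all genes were called in either direction. An unadjusted p under 0.05 was reached by 21 of 52 members and 5459 of 12756 genes. By either count the members did not exceed the share of all genes. The share of all genes that fell under F(1, 8) was not counted apart. MCM3, MCM6, MCM7, GINS2, RFC5, POLD1, LIG1 and RPA3 lost their calls in the double knockout. These 8 calls, and all calls in the AGO2 and ANKRD52 knockouts, rest on the authors' chi-square reading.

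GC content moved with the fold changes and differed between the members that fell and the rest. Across all genes the median log2 fold change in the AGO2 knockout went from 0.11 in the decile of genes with the lowest transcript GC content to -0.16 in the decile with the highest. Between the same deciles it went from 0.08 to -0.13 in the ANKRD52 and from 0.10 to -0.18 in the double knockout. Members that fell in the AGO2 knockout had a median GC content of 56.5%, against 45.3% for the other members. The corresponding values were 58.1% against 45.5% in the ANKRD52 knockout and 51.6% against 44.4% in the double knockout. After subtracting the median of each GC decile, an alternative chosen after seeing the data, the members' medians were -0.07, -0.10 and -0.15. The members that fell then numbered 4, 4 and 19 in the AGO2, ANKRD52 and double knockout. The share of all genes called after the subtraction was not counted, so these numbers have no background beside them. In the AGO2 knockout 4 calls were kept and 4 were lost. In the ANKRD52 knockout 3 calls were kept (RFC4, RFC5 and LIG1), 5 were lost and 1 (PRIM1, lower) was added. In the double knockout 19 of the 21 calls were kept, 2 were lost and 2 (DBF4 and RFC4, both lower) were added. CDT1 and POLD1, whose transcripts lie in the GC-richest decile, lost their calls in all 3 tables.

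**Figure D2:**
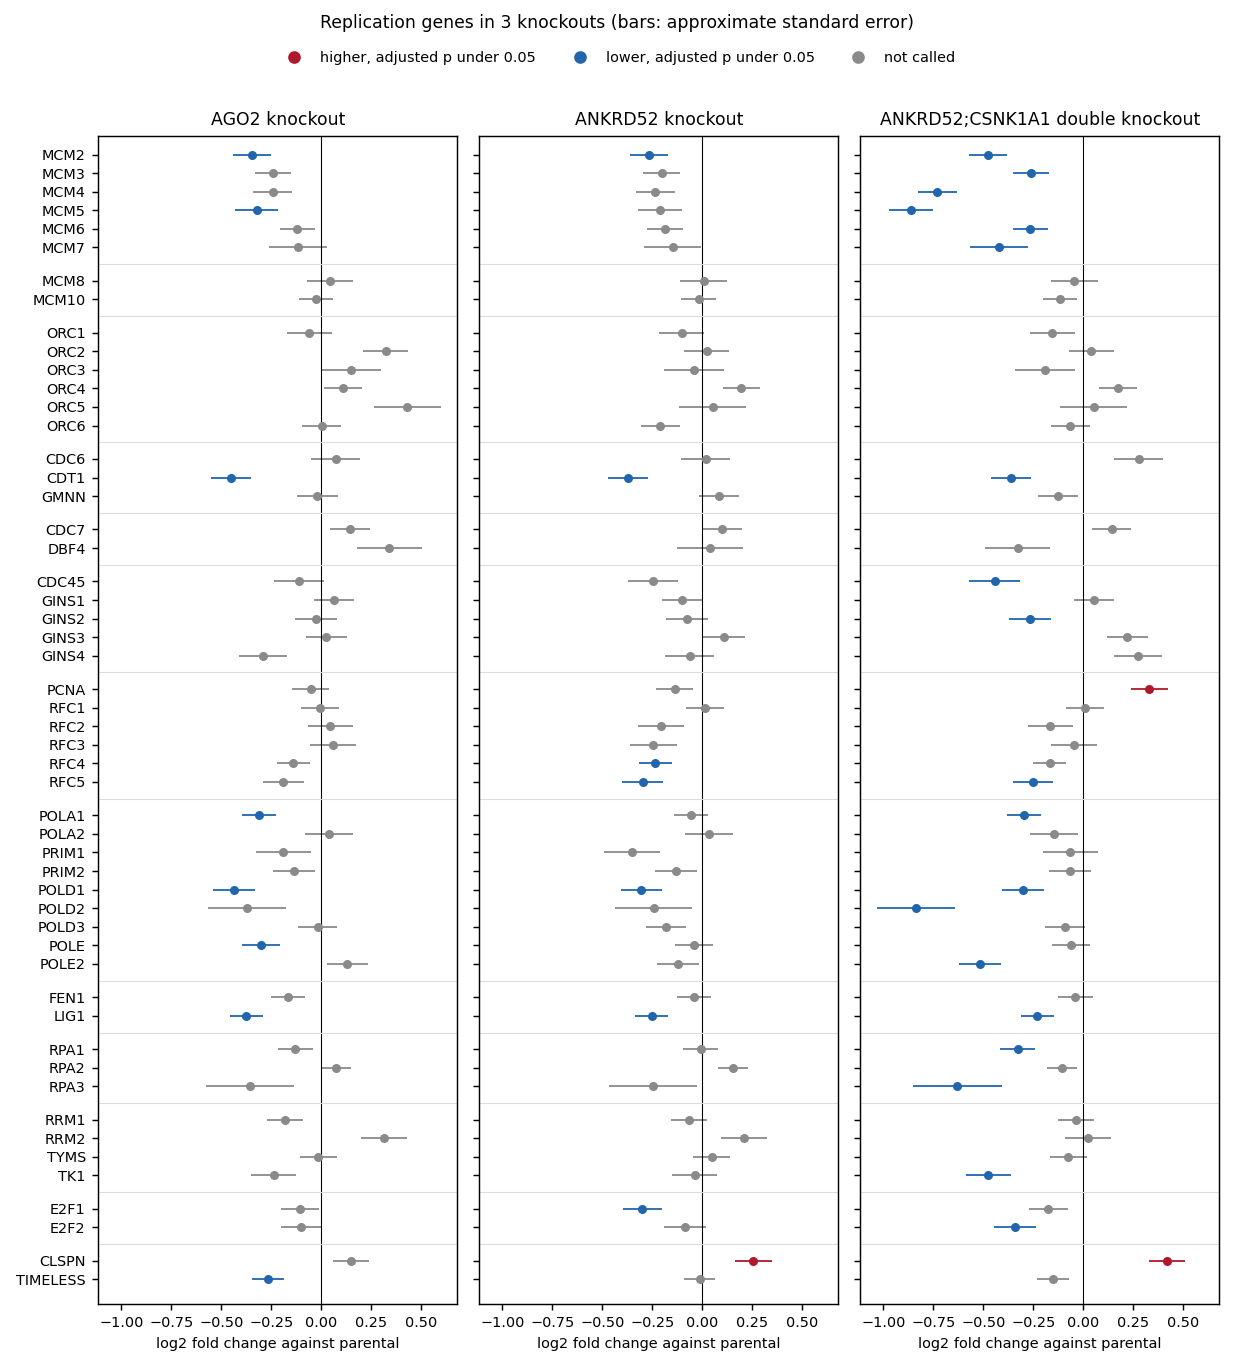
Log2 fold change against parental (horizontal axis) of each of the 52 replication genes (rows, by role), with bars of 1 approximate standard error, in the 3 knockouts. All 6 MCM2 to MCM7 points lie left of 0 in each panel, and blue (lower) points number 8, 7 and 19 in the AGO2, ANKRD52 and double knockout.

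All 6 subunits of the replicative helicase fell in the double knockout by the authors' test, and MCM5 and MCM4 fell most. Under F(1, 8) MCM2, MCM4 and MCM5 kept the call and MCM3, MCM6 and MCM7 lost it. The MCM2 to MCM7 proteins form the ring that encircles DNA and unwinds it. MCM5 had an implied level of 354 CPM in parental cells, 283 in the AGO2 knockout, 305 in the ANKRD52 and 195 in the double knockout. Its log2 fold change in the authors' deposited table for the double knockout was -0.86 (approximate SE 0.110, adjusted p = 1.69e-13), and the level fell by 44.9%. For MCM4 the implied levels were 582, 491, 495 and 351 CPM in the same order, and the authors' deposited table gave -0.73 in the double knockout (approximate SE 0.0984, adjusted p = 3.53e-12). The double knockout was lowest of the 4 groups for both genes, with the AGO2 and ANKRD52 knockouts between it and the parental cells.

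MCM2 is the subunit that also binds histones at the fork. It had implied levels of 380.5 CPM in parental cells, 299 in the AGO2 knockout, 317 in the ANKRD52 and 273 in the double knockout. In the authors' deposited tables its log2 fold change was -0.35 in the AGO2 knockout (adjusted p = 0.0122), -0.27 in the ANKRD52 knockout (adjusted p = 0.0423) and -0.48 in the double knockout (adjusted p = 5.18e-06). MCM2 thus passed the authors' threshold in every knockout, but after subtraction of the median of its GC decile it stood at -0.25 in the ANKRD52 knockout and was not called there. MCM5 also fell in the AGO2 knockout, at -0.32 in the authors' deposited table, but narrowly (adjusted p = 0.0499), and at -0.28 after the GC subtraction it was not called.

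MCM7, MCM6 and MCM3 fell less far in the double knockout. The authors' deposited table gave -0.42 for MCM7 (approximate SE 0.144, adjusted p = 0.0105), -0.26 for MCM6 (adjusted p = 0.00957) and -0.26 for MCM3 (adjusted p = 0.0134). In the AGO2 and ANKRD52 knockouts these 3 genes and MCM4 did not pass, with values between -0.24 and -0.12 in the authors' deposited tables. The median over the 6 subunits was -0.24, -0.21 and -0.45 in the AGO2, ANKRD52 and double knockout. Without the 6 helicase genes the other 46 members counted 0 higher and 6 lower, 1 higher and 6 lower, and 2 higher and 13 lower, with medians of -0.03, -0.06 and -0.11. The share that fell was 13.0%, 13.0% and 28.3%, against 2.72%, 6.04% and 20.1% of all genes, and in the double knockout against 23.8% of genes in the expression range above.

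MCM8, a helicase of recombination, and MCM10, which helps to start unwinding, were called in none of the tables. Their values in the authors' deposited tables lay between -0.12 (MCM10 in the double knockout) and 0.04 (MCM8 in the AGO2 knockout).

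**Figure D3:**
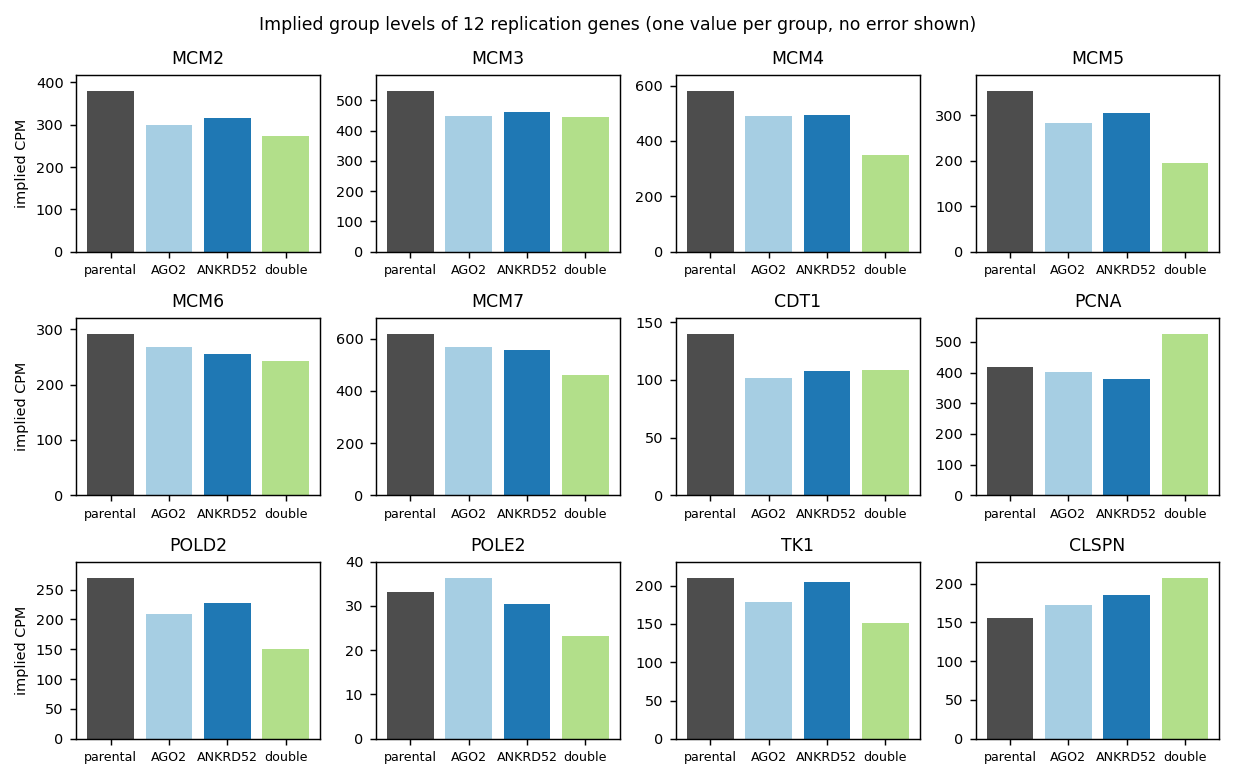
Implied CPM (vertical axes, from 0, scaled per gene) of 12 replication genes in parental cells and the AGO2, ANKRD52 and double knockouts, 1 bar per group and no error shown. MCM4, MCM5, POLD2, POLE2 and TK1 are lowest in the double knockout, while PCNA and CLSPN are highest there, at 525 and 208 CPM.

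None of the 6 subunits of the origin recognition complex, which marks origins for loading of the helicase, was called in any table. Over all genes 2.72%, 6.04% and 20.1% fell and 3.38%, 7.62% and 22.9% rose in the AGO2, ANKRD52 and double knockouts. In the AGO2 and ANKRD52 knockouts the absence of calls was thus near the background. Their values in the authors' deposited tables ran from -0.06 to 0.43 in the AGO2 knockout, from -0.21 to 0.20 in the ANKRD52 knockout and from -0.19 to 0.17 in the double knockout. The highest was ORC5 in the AGO2 knockout (0.43, approximate SE 0.168, adjusted p = 0.104, authors' deposited table), a gene of chromosome 7, where standard errors were wide. ORC2 stood at 0.32 there in the authors' deposited table (adjusted p = 0.0618). These 2 were singled out after their values were seen. The subunits with the smallest p in the double knockout were ORC4 (0.17, approximate SE 0.0944, adjusted p = 0.128), ORC1 (-0.16, approximate SE 0.112, adjusted p = 0.261) and ORC3 (-0.19, approximate SE 0.150, adjusted p = 0.308), from the authors' deposited table of that knockout.

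**Figure D4:**
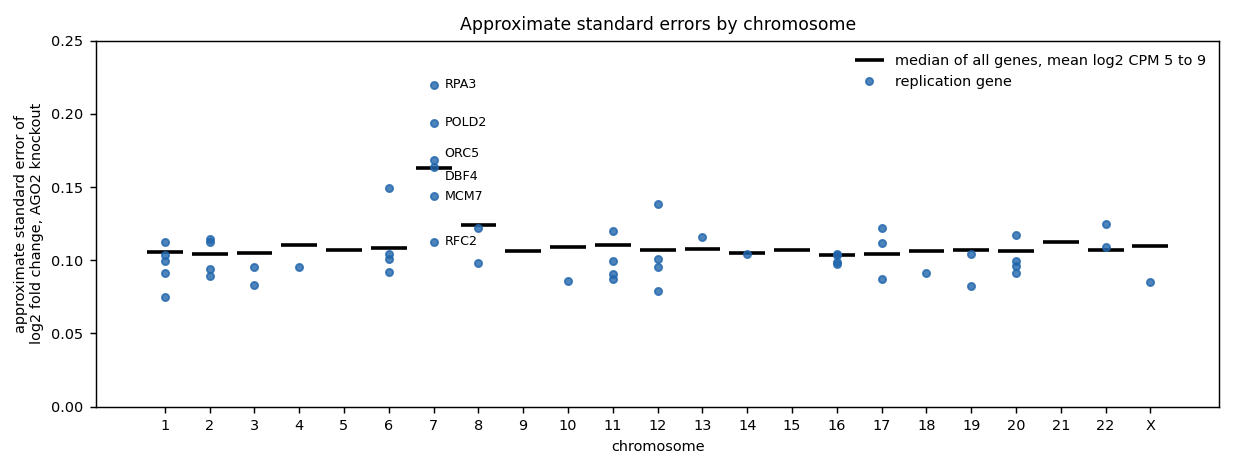
Approximate standard error of the log2 fold change in the AGO2 knockout (vertical axis) by chromosome (horizontal axis), with a point per replication gene and a bar at the median of all genes with a mean log2 CPM from 5 to 9. The bar of chromosome 7 stands at 0.163 and those of the other chromosomes between 0.103 and 0.124.

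The loading factors differed from each other. CDT1, which brings the helicase to origins and is normally destroyed in S phase, had implied levels of 139.5 CPM in parental cells and 102, 108 and 109 CPM in the AGO2, ANKRD52 and double knockouts. All 3 knockouts were lower than parental and close to each other. The authors' deposited tables gave -0.45 (approximate SE 0.0990, adjusted p = 0.000759), -0.37 (adjusted p = 0.00375) and -0.36 (adjusted p = 0.00122). After subtraction of the median of its GC decile CDT1 stood at -0.29, -0.24 and -0.18, and was called in none. CDC6, the ATPase that works with CDT1, was not called, with 0.07, 0.02 and 0.28 in the authors' deposited tables (adjusted p = 0.0529 in the double knockout). GMNN encodes geminin, the inhibitor of CDT1, and was not called either (-0.02, 0.08 and -0.13 in the authors' deposited tables).

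The origin firing kinase genes CDC7 and DBF4 were not called against parental. CDC7, the catalytic subunit, stood at 0.14, 0.10 and 0.14 in the authors' deposited tables. DBF4, its activator, had implied levels of 68.9 CPM in parental cells, 87.2 in the AGO2 knockout, 70.8 in the ANKRD52 and 54.9 in the double knockout. The AGO2 knockout was its highest group and the double knockout its lowest. Between these, DBF4 was lower in the double knockout by a log2 difference of -0.67 (approximate SE 0.164, approximate adjusted p = 0.000255), although neither fold change against parental passed (0.34 and -0.33, adjusted p = 0.199 and 0.0924, authors' deposited tables).

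CDC45 and GINS complete the active helicase. CDC45 fell in the double knockout (-0.44, approximate SE 0.126, adjusted p = 0.00177, authors' deposited table), from an implied 56.7 CPM in parental cells to 41.7 CPM, with 52.6 and 47.8 CPM in the AGO2 and ANKRD52 knockouts. GINS2 fell less (-0.27, adjusted p = 0.0272, authors' deposited table). The other 3 GINS subunits were not called in the double knockout and lay above 0 there, where the authors' deposited table gave 0.05 for GINS1, 0.22 for GINS3 and 0.27 for GINS4 (adjusted p = 0.693, 0.0722 and 0.0555). Subunits of 1 complex therefore stood on both sides of 0.

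PCNA, the sliding clamp that holds polymerases on DNA, rose in the double knockout. Its implied levels were 418 CPM in parental cells, 403 in the AGO2 knockout, 379.7 in the ANKRD52 and 525 in the double knockout, which was the highest group. The authors' deposited table gave 0.33 (approximate SE 0.0916, adjusted p = 0.00138), a rise of 25.7%. Besides serving replication, PCNA is also known as a target of p53. The clamp loader behaved otherwise. RFC5 fell in the ANKRD52 knockout (-0.30, adjusted p = 0.0296) as well as in the double (-0.25, adjusted p = 0.0337), and RFC4 in the ANKRD52 knockout (-0.23, adjusted p = 0.0397), all in the authors' deposited tables. RFC1, RFC2 and RFC3 were not called in any table, with values from -0.24 to 0.06 in the authors' deposited tables.

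Of the 9 genes of the polymerases and primase, 3 fell in the AGO2 knockout, 1 in the ANKRD52 and 4 in the double knockout, and 0 rose, where 2.72%, 6.04% and 20.1% of all genes fell and 3.38%, 7.62% and 22.9% rose. POLD2, the second subunit of DNA polymerase delta, had implied levels of 270.0 CPM in parental cells, 209 in the AGO2 knockout, 228 in the ANKRD52 and 151 in the double knockout. Its fold change in the double knockout (-0.84, approximate SE 0.195, adjusted p = 0.000112, authors' deposited table) carried a wider error than any other member but RPA3. POLE2, the second subunit of DNA polymerase epsilon, had implied levels of 33.2, 36.4, 30.5 and 23.3 CPM, and fell in the double knockout (-0.52, approximate SE 0.106, adjusted p = 9.87e-06, authors' deposited table). Both accessory subunits were thus lowest in the double knockout.

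The catalytic subunits had other patterns. POLD1, of polymerase delta, fell in all 3 knockouts, at -0.44 (adjusted p = 0.00278), -0.30 (adjusted p = 0.0315) and -0.30 (adjusted p = 0.0123) in the authors' deposited tables, with implied levels of 79.3 CPM in parental cells and 58.7, 64.2 and 64.4 CPM in the knockouts. After subtraction of the median of its GC decile POLD1 was called in none, at -0.27, -0.18 and -0.12. POLE, of polymerase epsilon, fell in the AGO2 knockout (-0.30, adjusted p = 0.0324, authors' deposited table) and stood at -0.04 and -0.06 in the others. After the GC subtraction POLE stood at -0.26 in the AGO2 knockout and was not called. POLA1, of the polymerase alpha that starts each strand, fell in the AGO2 knockout (-0.31, adjusted p = 0.0106) and the double knockout (-0.30, adjusted p = 0.00181) in the authors' deposited tables, and stood at -0.06 in the ANKRD52 knockout. POLA2, PRIM1, PRIM2 and POLD3 were not called in any of the authors' deposited tables. The lowest of them was PRIM1 in the ANKRD52 knockout (-0.35, approximate SE 0.139, adjusted p = 0.0702, authors' deposited table). After the GC subtraction PRIM1 stood at -0.42 in the ANKRD52 knockout and was called lower.

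LIG1, the ligase that seals Okazaki fragments, fell in all 3 knockouts. The authors' deposited tables gave -0.38 (approximate SE 0.0823, adjusted p = 0.000754), -0.25 (adjusted p = 0.0222) and -0.23 (adjusted p = 0.0145), from an implied 122 CPM in parental cells to 93.9, 102 and 104 CPM. Unlike CDT1 and POLD1, LIG1 kept its call in each table after subtraction of the median of its GC decile. However, LIG1 and POLD1 both lie on chromosome 19. Genes of that chromosome in the expression range above had medians of -0.09, -0.09 and -0.21 in the AGO2, ANKRD52 and double knockouts. Each was the lowest median of any chromosome, and LIG1 in the double knockout was close to it. Whether LIG1 fell beyond the shift of its chromosome was not tested. FEN1, the nuclease that trims the same fragments, was not called (-0.17, -0.04 and -0.04 in the authors' deposited tables).

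Replication protein A coats single-stranded DNA. RPA1, its large subunit, fell in the double knockout (-0.33, approximate SE 0.0871, adjusted p = 0.000792, authors' deposited table), with implied levels of 306 CPM in parental cells, 279 and 304 CPM in the AGO2 and ANKRD52 knockouts, and 243 CPM in the double knockout. RPA3, the small subunit and the member with the lowest expression, fell there too (-0.63, approximate SE 0.221, adjusted p = 0.0133, authors' deposited table). RPA2 was not called against parental (0.07, 0.15 and -0.11 in the authors' deposited tables).

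Of the 4 enzymes of nucleotide supply, TK1 fell in the double knockout. TK1, the thymidine kinase of the salvage route, had implied levels of 210.5 CPM in parental cells, 179 in the AGO2 knockout, 205 in the ANKRD52 and 151 in the double knockout, and a log2 fold change of -0.48 there (approximate SE 0.112, adjusted p = 0.000133, authors' deposited table). The ribonucleotide reductase genes RRM1 and RRM2 and the thymidylate synthase gene TYMS were not called. In the double knockout the authors' deposited table gave -0.03 for RRM1 (adjusted p = 0.782) and -0.07 for TYMS (adjusted p = 0.535). RRM2, singled out after its values were seen as the member with the highest expression, had its highest implied level in the AGO2 knockout (635 CPM, against 510.3 in parental cells), where its log2 fold change of 0.31 in the authors' deposited table did not pass (adjusted p = 0.0734).

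The transcription factor genes E2F1 and E2F2, which activate many of the genes above, each fell in 1 table. E2F1 fell in the ANKRD52 knockout (-0.30, approximate SE 0.0965, adjusted p = 0.0207) and stood at -0.11 and -0.17 in the AGO2 and double knockouts, in the authors' deposited tables. E2F2 fell in the double knockout (-0.34, approximate SE 0.104, adjusted p = 0.00403) and stood at -0.10 and -0.09 in the AGO2 and ANKRD52 knockouts, in the authors' deposited tables. After subtraction of the median of its GC decile E2F1 stood at -0.17 in the ANKRD52 knockout and was not called.

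Of the fork protection genes, CLSPN was called in the ANKRD52 and double knockouts and TIMELESS in the AGO2 knockout. CLSPN encodes claspin, which carries the checkpoint signal from ATR to CHK1 at stalled forks. Its implied levels were 155 CPM in parental cells, 172 in the AGO2 knockout, 185 in the ANKRD52 and 208 in the double knockout, so every knockout was above parental. CLSPN rose in the ANKRD52 knockout (0.25, adjusted p = 0.0423) as well as in the double (0.42, approximate SE 0.0916, adjusted p = 3.53e-05), and stood at 0.15 in the AGO2 knockout (adjusted p = 0.346), in the authors' deposited tables. After the GC subtraction it stood at 0.21 in the ANKRD52 knockout and was not called there. TIMELESS, which links the helicase to the polymerases, fell in the AGO2 knockout (-0.27, approximate SE 0.0790, adjusted p = 0.0213, authors' deposited table) and stood at -0.01 and -0.15 in the ANKRD52 and double knockouts.

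The double and the ANKRD52 knockouts share the loss of ANKRD52 and differ in the label by the loss of CSNK1A1. The difference of their log2 fold changes compares these 2 groups, since the parental level drops out, and was tested with an approximate standard error and an adjusted p over 11876 genes. In this comparison 2 members were higher in the double knockout and 9 lower, where 18.1% of all genes were higher and 16.3% lower. The share of members that were lower was thus near the background, and the share that were higher (2 of 52) lay under it. MCM5 (-0.65, approximate SE 0.110, approximate adjusted p = 5.54e-08), POLD2 (-0.59, approximate adjusted p = 0.00932), MCM4 (-0.49, approximate adjusted p = 5.43e-06) and TK1 (-0.44, approximate adjusted p = 0.000607) were furthest below. POLE2 (-0.39), RPA1 (-0.32), RPA2 (-0.26), E2F2 (-0.25) and POLA1 (-0.24) were also lower. PCNA was higher by 0.47 (approximate SE 0.0916, approximate adjusted p = 3.74e-06) and GINS4 by 0.34 (approximate adjusted p = 0.0201). Next were PRIM1 (0.29, approximate adjusted p = 0.0954) and CDC6 (0.26, approximate adjusted p = 0.0834), which did not pass. MCM2, MCM3, MCM6, MCM7, CDT1, POLD1 and LIG1 did not pass, so their falls in the double knockout were not shown to differ from those in the ANKRD52 knockout.

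**Figure D5:**
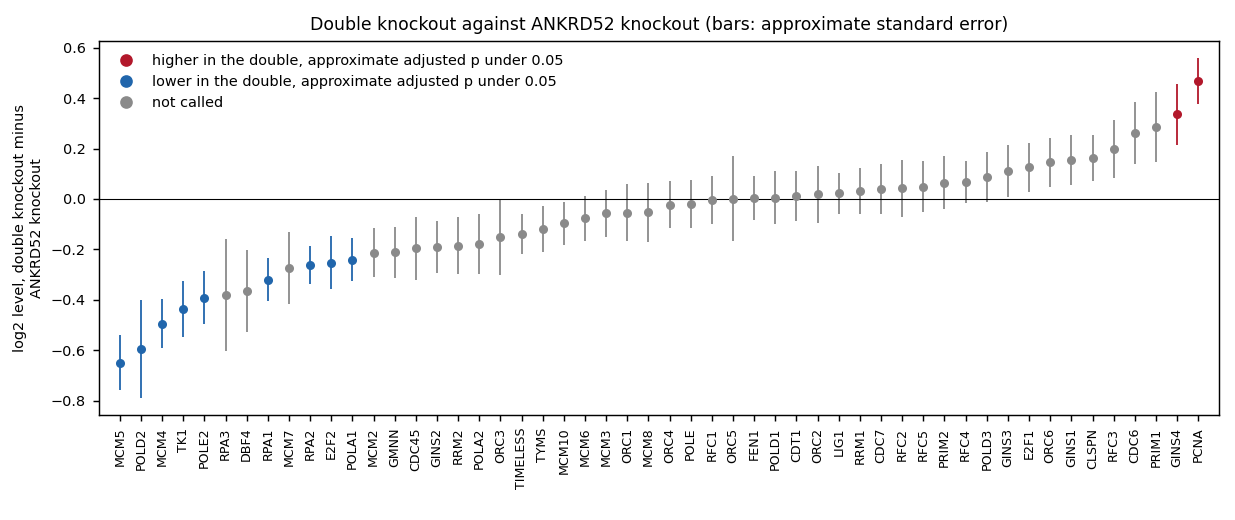
Log2 difference between the double knockout and the ANKRD52 knockout (vertical axis) for the 52 replication genes in order of size, with bars of 1 approximate standard error. MCM5 is lowest at -0.65 and PCNA highest at 0.47, and 11 of the 52 points are coloured as called.

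Between the double and the AGO2 knockout, 4 members were higher in the double knockout and 10 lower, where 21.6% of all genes were higher and 21% lower. The members lower in the double knockout were DBF4, POLE2 (-0.65, approximate adjusted p = 1.26e-08), MCM5 (-0.54), MCM4 (-0.48), POLD2 (-0.46), CDC45 (-0.33), RRM2 (-0.29), ORC2 (-0.28), E2F2 (-0.24) and RPA2 (-0.18). The members higher were GINS4 (0.56, approximate adjusted p = 2.61e-05), PCNA (0.38), CLSPN (0.27) and POLE (0.24). Both shares lay under the background.

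Between the ANKRD52 and the AGO2 knockout, 2 members were higher in the ANKRD52 knockout and 0 lower, where 5.52% of all genes were higher and 3.91% lower. At an unadjusted p under 0.05 stood 10 of 52 members and 2776 of 11876 genes, so the members did not exceed the share of all genes. The 2 higher members were TIMELESS (0.25, approximate SE 0.0789, approximate adjusted p = 0.0210) and POLA1 (0.25, approximate SE 0.0847, approximate adjusted p = 0.0351). Their falls in the AGO2 knockout thus differed from the ANKRD52 knockout. The fall of POLE in the AGO2 knockout and those of RFC4, RFC5 and E2F1 in the ANKRD52 knockout did not pass the same test, so a difference between these 2 groups was not shown for them.

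Another 86 genes of the same process, in 6 lists, gave 2 higher and 3 lower in the AGO2 knockout, 5 higher and 5 lower in the ANKRD52 knockout, and 10 higher and 24 lower in the double knockout. The share that fell was 3.49%, 5.81% and 27.9%, against 2.72%, 6.04% and 20.1% of all genes, and the share that rose was 2.33%, 5.81% and 11.6%, against 3.38%, 7.62% and 22.9%. In the AGO2 and ANKRD52 knockouts these shares were near the background. Their medians were -0.02, -0.01 and -0.10. The counts of single lists in the double knockout, below, are to be read against the same 20.1% that fell and 22.9% that rose. Chromatin assembly factors at forks counted 2 higher and 5 lower of 10 in the double knockout. Among them were the FACT histone chaperone genes SSRP1 (-0.37, adjusted p = 0.000481) and SUPT16H (-0.29, adjusted p = 0.00289) and the maintenance methylation factor UHRF1 (-0.30, adjusted p = 0.00366), which fell, and the histone chaperone ASF1A (0.53, adjusted p = 0.00171), which rose, in the authors' deposited table. Enzymes of nucleotide supply beyond the 4 members counted 3 higher and 6 lower of 15. The guanine nucleotide enzyme IMPDH2 (-0.91, adjusted p = 1.96e-11), the thymidylate kinase DTYMK (-0.54, adjusted p = 8.14e-06) and the purine synthesis enzyme GART (-0.44, adjusted p = 8.14e-06) fell in the authors' deposited table. SAMHD1, which degrades deoxynucleotides, rose in all 3 knockouts (0.34, 0.34 and 0.44 in the authors' deposited tables, adjusted p = 0.0112, 0.00622 and 2e-05).

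Accessory fork factors counted 1 higher and 6 lower of 24 in the double knockout. The S phase cyclin gene CCNA2 (-0.43, adjusted p = 3.32e-06), the polymerase alpha adaptor WDHD1 (-0.32, adjusted p = 0.000182), the RNase H2 subunit RNASEH2B (-0.36, adjusted p = 0.00140) and the helicase RECQL4 (-0.52, adjusted p = 0.000360) fell in the authors' deposited table. RECQL4 also fell in the AGO2 knockout (-0.84, adjusted p = 1.31e-07) and the ANKRD52 knockout (-0.37, adjusted p = 0.0362) in the authors' deposited tables. Whether RECQL4 or the other genes of these lists fell beyond a shift of their chromosome was not tested. Genes of E2F, pocket protein and DREAM factors counted 3 higher and 4 lower of 17. The E2F partner TFDP1 (-0.55, adjusted p = 1.78e-06), E2F4 (-0.44, adjusted p = 0.00109) and the pocket protein gene RBL2 (-0.45, adjusted p = 0.00136) fell, and the DREAM subunit LIN54 rose (0.64, adjusted p = 0.000142), in the authors' deposited table.

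The replication checkpoint list counted 1 higher and 1 lower of 12 in the double knockout (8.33% each way, under the background), ATM (0.27, adjusted p = 0.0458) and CHEK2 (-0.58, adjusted p = 0.00107) in the authors' deposited table, while HUS1 (0.48, adjusted p = 0.0788) and RAD1 (-0.17, adjusted p = 0.156) did not pass. Genes of licensing turnover counted 0 higher and 2 lower of 8. These were the APC/C activator FZR1 (-0.28, adjusted p = 0.00545) and DDB1 (-0.28, adjusted p = 0.00830), an adaptor of the ligase that destroys CDT1, in the authors' deposited table. CUL4A (-0.08) and FBXO5 (-0.12) were not called there.

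Of the targeted genes, AGO2 stood at -1.07 in the AGO2 knockout (adjusted p = 0.0477) and CSNK1A1 at -2.42 in the double knockout, while ANKRD52 stood at 0.03 in the ANKRD52 knockout (adjusted p = 0.915) and -0.65 in the double knockout, in the authors' deposited tables. ANKRD52 RNA therefore does not check the label of the ANKRD52 knockout. All 5 epithelial markers of HCT116 were measured, with a summed implied level of 3288 CPM in parental cells, 3398 in the AGO2 knockout, 3159 in the ANKRD52 and 8516 in the double knockout. The keratins KRT8, KRT18 and KRT19 carried the sum. CDH1 (-1.33, adjusted p = 0.0195) and EPCAM (-0.81, adjusted p = 0.000545) fell in the ANKRD52 knockout in the authors' deposited table, and KRT8, KRT18, KRT19 and CDH1 rose in the double knockout. Of 14 markers of other cell types, 5 were listed, with sums from 23.1 CPM in the ANKRD52 to 42.2 CPM in the double knockout. Between parental and double knockout cells the implied level of LYZ went from 0.0788 to 8.63 CPM and that of CD68 from 4.18 to 1.07 CPM. The part of these markers in the results was not tested.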

How the data were processed

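PolyA libraries were made with a stranded kit and sequenced for 75 cycles, per the labels' protocols. The build was hg19, per the submitters' processing notes, which also list edgeR 3.8.6, featureCounts 1.4.6 and TopHat2 2.0.12 and no role for any. The authors deposited 3 edgeR tables, 1 per knockout against parental. Per the file headers these hold log2 fold changes and a mean log2 CPM, a likelihood ratio score made by the authors, and the deposited p-value with its adjusted value. Recomputing the p-values as chi-square tails with 1 degree of freedom gave the deposited ones (12756 of 12756), and the adjusted ones were Benjamini-Hochberg values over all 12756 genes. Counts of single libraries were not used here, so library depth is unknown.

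Differences between knockouts took the mean of both squared approximate standard errors as variance in a normal test, adjusted by Benjamini-Hochberg over the 11876 genes whose mean log2 CPM was 1 or more. Of the designs written for counts and for fold change tables, the second applied. GC content came from the longest protein-coding transcript in GENCODE release 29, matched by symbol (11482 of 12756 genes and 52 of 52 members). Promoters came from RefSeq (GRCh38.p14), a different build from that of the tables, matched by symbol. Tools were matplotlib 3.10.9, pandas 2.3.3, scipy 1.17.1, numpy 2.4.6 and Python 3.11.15.

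No measured value enters the rule for the members, but the members, the other lists and the tests were chosen with earlier results of these data known. Named with full statistics were up to 3 members per role with the smallest p in the double knockout, every member called in the AGO2 or ANKRD52 table, the 4 members most different each way between the double and the ANKRD52 knockout, and up to 4 genes of each other list with the smallest p in the double knockout. ORC2, ORC5 and RRM2 were singled out after their values were seen. Alternatives were a stricter threshold, an F distribution, expression filters, centring, a minimum fold, another variance, and, chosen after seeing the data, leaving out chromosome 7 and subtracting the median of GC deciles.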

Additional observations from a re-analysis of the deposited data

How the results depend on the processing

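Centring on the median of all genes, a mean log2 CPM of at least 3, all genes in the test of differences, the mean in place of the median, and leaving out the members of chromosome 7 kept all counts of members within 1.5 times and all medians below 0. With an adjusted p under 0.01 the members that fell numbered 3 in the AGO2, 1 in the ANKRD52 and 12 in the double knockout, and 0 rose in the ANKRD52 knockout. The F distribution left 0, 0 and 11 that fell and 0 that rose in the ANKRD52 knockout, and kept 13 of the 37 calls of single members (24 were lost). A minimum of 1.2-fold left 0 that rose in the ANKRD52 knockout. Less the median of the GC decile, 4 fell in the AGO2 knockout, and 4 fell (among them PRIM1, newly called) and 0 rose in the ANKRD52 knockout. With the sum of both squared standard errors, 1 member was higher and 4 lower in the double against the ANKRD52 knockout, 2 higher and 4 lower in the double against the AGO2 knockout, and 0 higher in the ANKRD52 against the AGO2 knockout. With an adjusted p under 0.01 these differences numbered 1 higher in the first, 2 higher and 4 lower in the second, and 0 higher in the third. Of the alternatives that lowered these counts, only the F distribution had the share of all genes counted beside it. The other counts are therefore not a comparison of the members with all genes. Beyond the stricter construction of each alternative, the cause was not tested. No paired analysis was possible because the tables hold no values of single libraries. Leaving out replicates and DESeq2 were not run for the same reason.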

Other observations

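The 6 members on chromosome 7 (RPA3, POLD2, ORC5, DBF4, MCM7 and RFC2) were measured with wider errors than most of the rest. Their approximate standard errors in the AGO2 knockout ran from 0.113 to 0.220 with a median of 0.166, against 0.0748 to 0.149 with a median of 0.0993 for the 46 other members. The same held for chromosome 7 as a whole. Over its 268 genes with a mean log2 CPM from 5 to 9 the median was 0.163, while the medians of the other chromosomes lay between 0.103 and 0.124, the highest of them on chromosome 8 and the next at 0.112. The median of the same chromosome 7 genes was 0.1631 in the ANKRD52 and 0.1635 in the double knockout. On every chromosome the medians of the 3 comparisons were nearly equal. The errors therefore cannot show whether the wider spread belonged to 1 group or to all. Genes were placed on chromosomes by symbol, which matched 11545 genes and left 1211 without one. In the authors' deposited table for the AGO2 knockout these members stood on both sides of 0, with ORC5 at 0.43, DBF4 at 0.34, POLD2 at -0.37 and RPA3 at -0.36, and none of these 4 was called. Without chromosome 7 the members that fell in the double knockout numbered 16 in place of 19. In the AGO2 and ANKRD52 knockouts no member of chromosome 7 was called, so those counts could not change. The cause of the wider errors was not tested.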
